A study of Mus musculus with 8 samples.

Results

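Lipoprotein receptors and sterol handling were followed through 8 genes in stromal cells of the mouse small intestine, out of 53801 genes in the count table. Apoe encodes a secreted apolipoprotein that docks lipoprotein particles onto cells. Vldlr and Lrp1 encode receptors of the LDL receptor family that bind such particles. Cyp27a1 and Ch25h encode enzymes that add a hydroxyl group to cholesterol, Abca1 and Abcg1 encode exporters of cholesterol, and Nr1h3 encodes LXRα, a nuclear receptor that hydroxylated sterols activate. The genes were chosen by name for these roles and from earlier results of the same comparison, in which Vldlr and Cyp27a1 were among the genes lower in PDGFRα+ cells. Their values, and whether each passed the threshold of the fit over all genes, are therefore given as a description of these libraries and not as tests of the 8.

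The sorted cells were YFP+ and negative for CD45 (a leukocyte marker) and CD31 (an endothelial marker). Their donors were mice named for a floxed lymphotoxin β receptor gene (LTβRflox) combined with PDGFRα/YFP. Sorting on PDGFRα gave 4 YFP+PDGFRα+ libraries and 4 YFP+PDGFRα- libraries, so both groups carry YFP and the floxed gene, and no library without them was analysed here. The sources used here give no treatment, age, sex or number of mice per library, and do not say what drives YFP. Nothing says that the libraries are separate mice, so errors measure the spread between libraries, which may be technical. Total counts ran from 13.0 to 35.1 in PDGFRα+ libraries and from 12.9 to 26.9 in PDGFRα- libraries, in units of 1e+06 reads. The RNA of the sorted gene did not separate the groups: Pdgfra averaged 597 ± 69.2 CPM (counts per 1e+06 of scaled library size) in PDGFRα+ and 652 ± 124 CPM in PDGFRα- libraries (SD, n = 4 each). The 11 fibroblast markers, including collagens, summed to 88900 to 114539 CPM in PDGFRα+ and to 119310 to 169039 CPM in PDGFRα- libraries, so both groups had the labelled stromal character. Leukocyte and endothelial RNA was uneven between the libraries. Ptprc, the gene of CD45, ran from 1.07 to 2.64 CPM in PDGFRα+ libraries, against 1.42, 0.804, 14.8 and 24.5 CPM in PDGFRα- libraries 1 to 4. Pecam1, the gene of CD31, reached 132 CPM in PDGFRα- library 4 and at most 35.2 CPM elsewhere.

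As background, cells take up cholesterol inside lipoproteins, which carry apolipoprotein E and bind receptors such as the VLDL receptor and LRP1. Sterol 27-hydroxylase, the product of Cyp27a1, and cholesterol 25-hydroxylase, the product of Ch25h, make oxysterols, which activate LXR and, in the gut, serve as precursors of ligands that guide lymphocytes. LXR in turn raises the genes of the exporters ABCA1 and ABCG1 and, in several cell types, Apoe, which returns cholesterol to lipoproteins outside the cell.

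The promoters of the 4 genes whose PDGFRα+ libraries all lay below the PDGFRα- libraries are shown so that a shared sequence feature can be looked for. Each is a RefSeq window on GRCm38.p6 from 250 bases before to 50 after a start site of the gene, on the gene's own strand. RefSeq holds 3 windows for Apoe and 2 for Vldlr, of which the one nearest the GENCODE gene start is shown, and the Cyp27a1 window is set on a RefSeq start at 74713535, before the GENCODE start. RefSeq windows matched 7 of the 8 genes by symbol; Abcg1 was the other gene. The windows are chr7:19699139-19699438 (minus strand) for Apoe, chr19:27216234-27216533 (plus strand) for Vldlr, chr1:74713285-74713584 (plus strand) for Cyp27a1 and chr4:53159846-53160145 (minus strand) for Abca1. Capitals mark matches to the searched motifs.
Apoe: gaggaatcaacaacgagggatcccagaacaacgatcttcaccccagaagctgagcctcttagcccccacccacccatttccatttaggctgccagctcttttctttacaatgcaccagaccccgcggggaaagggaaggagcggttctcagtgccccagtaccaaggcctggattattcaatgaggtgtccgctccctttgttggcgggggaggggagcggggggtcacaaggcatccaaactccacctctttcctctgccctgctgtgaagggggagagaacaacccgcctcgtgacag
Vldlr: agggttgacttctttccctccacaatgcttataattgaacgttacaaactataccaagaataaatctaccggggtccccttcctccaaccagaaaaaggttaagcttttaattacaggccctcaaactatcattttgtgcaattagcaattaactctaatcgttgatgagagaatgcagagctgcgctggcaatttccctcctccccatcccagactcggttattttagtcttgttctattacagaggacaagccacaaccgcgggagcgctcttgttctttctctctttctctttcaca
Cyp27a1: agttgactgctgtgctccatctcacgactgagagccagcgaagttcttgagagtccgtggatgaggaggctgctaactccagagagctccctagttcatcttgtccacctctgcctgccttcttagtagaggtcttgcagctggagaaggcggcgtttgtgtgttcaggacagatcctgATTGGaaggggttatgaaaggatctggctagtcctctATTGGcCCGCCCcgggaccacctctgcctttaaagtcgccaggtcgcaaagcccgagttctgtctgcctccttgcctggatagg
Abca1: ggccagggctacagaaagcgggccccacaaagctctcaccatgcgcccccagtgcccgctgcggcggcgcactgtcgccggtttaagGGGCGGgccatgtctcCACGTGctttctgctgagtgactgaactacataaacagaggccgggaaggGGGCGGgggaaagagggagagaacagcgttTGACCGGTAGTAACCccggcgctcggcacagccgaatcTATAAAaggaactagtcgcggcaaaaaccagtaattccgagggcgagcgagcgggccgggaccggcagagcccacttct

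The following 6 letter patterns were searched on both strands: the GC box GGGCGG, held by 35.7% of 32851 RefSeq windows of the same length, TATAAA (13.6%), CCAAT (37.4%), the E-box CACGTG (7.15%), the nuclear receptor half-site AGGTCA (16.3%) and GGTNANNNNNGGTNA (0.718%), a loose form of the paired half-sites that LXR binds. The last pattern was chosen knowing that Abca1 carries such a site. The Abca1 window held it on the opposite strand, as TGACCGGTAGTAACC, from 67 bases before the start. That window also held GC boxes at 163 and 97 bases before the start, an E-box at 147 and TATAAA at 29. The Cyp27a1 window held CCAAT on the opposite strand at 71 and 34 bases before the start, and a GC box at 28. None of the 6 patterns was in the Apoe or Vldlr window shown, and AGGTCA was in none of the 7 windows searched. The 4 windows thus shared no searched pattern, which says only that these letters are not in these windows.

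The ligand Apoe was the most strongly expressed of the 8 genes per length in 7 of 8 libraries, and its level was lower in PDGFRα+ cells. Apoe (ENSMUSG00000002985, chr7:19696109-19699188, minus strand) had 471, 339, 444 and 646 CPM in PDGFRα+ libraries 1 to 4, against 934, 952, 807 and 972 CPM in PDGFRα- libraries 1 to 4. The groups did not overlap, and the highest PDGFRα+ library, number 4, stayed below the lowest PDGFRα- library, number 3. The log2 fold change of PDGFRα+ over PDGFRα- was -0.95 ± 0.19 (SE, 95% interval -1.35 to -0.54), a level 1.93-fold lower in PDGFRα+ cells. This did not pass the threshold of edgeR's quasi-likelihood test, a Benjamini-Hochberg adjusted p under 0.05 over the 15643 genes with enough counts to be tested. In bulk samples such as these, fewer cells with a transcript and less of it per cell cannot be told apart.

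Among the receptors, Vldlr was lower in PDGFRα+ cells and Lrp1 overlapped between the groups. Vldlr (ENSMUSG00000024924, chr19:27216484-27254231, plus strand) had 53.6, 27.8, 51.5 and 57.9 CPM in PDGFRα+ libraries 1 to 4, against 91.0, 159, 142 and 116 CPM in PDGFRα- libraries. The groups did not overlap, and PDGFRα+ library 2 was the lowest of the 8 while PDGFRα- library 2 was the highest. The log2 fold change was -1.41 ± 0.24 (SE, 95% interval -1.93 to -0.90), or 2.66-fold lower, the largest fold of the 8 genes, and it passed the threshold. Lrp1, a large endocytic receptor that also clears proteases, had far more reads. Lrp1 (ENSMUSG00000040249, chr10:127538161-127621148, minus strand) had 3804, 2845, 2850 and 2368 CPM in PDGFRα+ libraries, against 4417, 3064, 2957 and 2289 CPM in PDGFRα- libraries. The groups overlapped over most of their range, and in both groups library 1 was the highest and library 4 the lowest. The log2 fold change was -0.10 ± 0.21 (SE, 95% interval -0.55 to 0.35), an interval that leaves room for a modest difference in either direction.

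The sterol hydroxylases had log2 fold changes of opposite sign. Cyp27a1 (ENSMUSG00000026170, chr1:74713574-74737892, plus strand) had 25.8, 29.1, 37.0 and 31.9 CPM in PDGFRα+ libraries, against 61.4, 61.0, 64.3 and 56.8 CPM in PDGFRα- libraries. The groups lay far apart relative to their spread, with a coefficient of variation of 15.3% within PDGFRα+ and 5.07% within PDGFRα- libraries. The log2 fold change was -0.98 ± 0.18 (SE, 95% interval -1.37 to -0.59), or 1.97-fold lower, and it passed the threshold. Ch25h, a gene without introns that inflammatory signals raise in macrophages, was much scarcer. Ch25h (ENSMUSG00000050370, chr19:34473778-34475164, minus strand) had 6.85, 5.78, 13.6 and 11.3 CPM in PDGFRα+ libraries, against 8.10, 2.51, 5.15 and 8.79 CPM in PDGFRα- libraries. The groups overlapped, and the log2 fold change of 0.61 ± 0.47 (SE, 95% interval -0.40 to 1.61) did not pass the threshold. Counts of Ch25h were 141 to 421 reads in PDGFRα+ and 50 to 199 reads in PDGFRα- libraries, and its exons overlap Gm26902 on the other strand, so reads of the pair may be mixed if strand was not used in counting.

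The exporters and their regulator had fold changes nearer 0. Abca1 (ENSMUSG00000015243, chr4:53030787-53159895, minus strand) loads cholesterol onto apolipoproteins that carry little lipid. It had 269, 278, 283 and 251 CPM in PDGFRα+ libraries, against 338, 435, 309 and 334 CPM in PDGFRα- libraries. All PDGFRα+ libraries were below all PDGFRα- libraries, but the nearest, PDGFRα+ library 3 and PDGFRα- library 3, were close. The log2 fold change was -0.39 ± 0.15 (SE, 95% interval -0.71 to -0.06), or 1.31-fold lower, and it did not pass the threshold. Abcg1 (ENSMUSG00000024030, chr17:31057675-31117988, plus strand), which passes cholesterol to lipid-laden particles, was near the lower limit of what these libraries measure. It had 5.10, 0.451, 2.81 and 2.60 CPM in PDGFRα+ libraries, against 2.56, 0.804, 3.35 and 4.32 CPM in PDGFRα- libraries, from 11 to 178 reads a library. Number 2 was the lowest in both groups, and the log2 fold change of -0.01 ± 0.83 (SE, 95% interval -1.78 to 1.76) leaves its direction undetermined.

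Nr1h3 (ENSMUSG00000002108, chr2:91184061-91202834, minus strand) had 11.5, 6.35, 7.59 and 2.23 CPM in PDGFRα+ libraries, against 7.08, 7.54, 3.35 and 7.94 CPM in PDGFRα- libraries, from 30 to 402 reads a library. The PDGFRα+ libraries spanned the whole PDGFRα- range, and the log2 fold change was 0.10 ± 0.51 (SE, 95% interval -0.997 to 1.19). Its exons overlap Gm13783 on the same strand, so some reads of Nr1h3 may have been left uncounted or assigned to that gene.

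**Figure D1:**
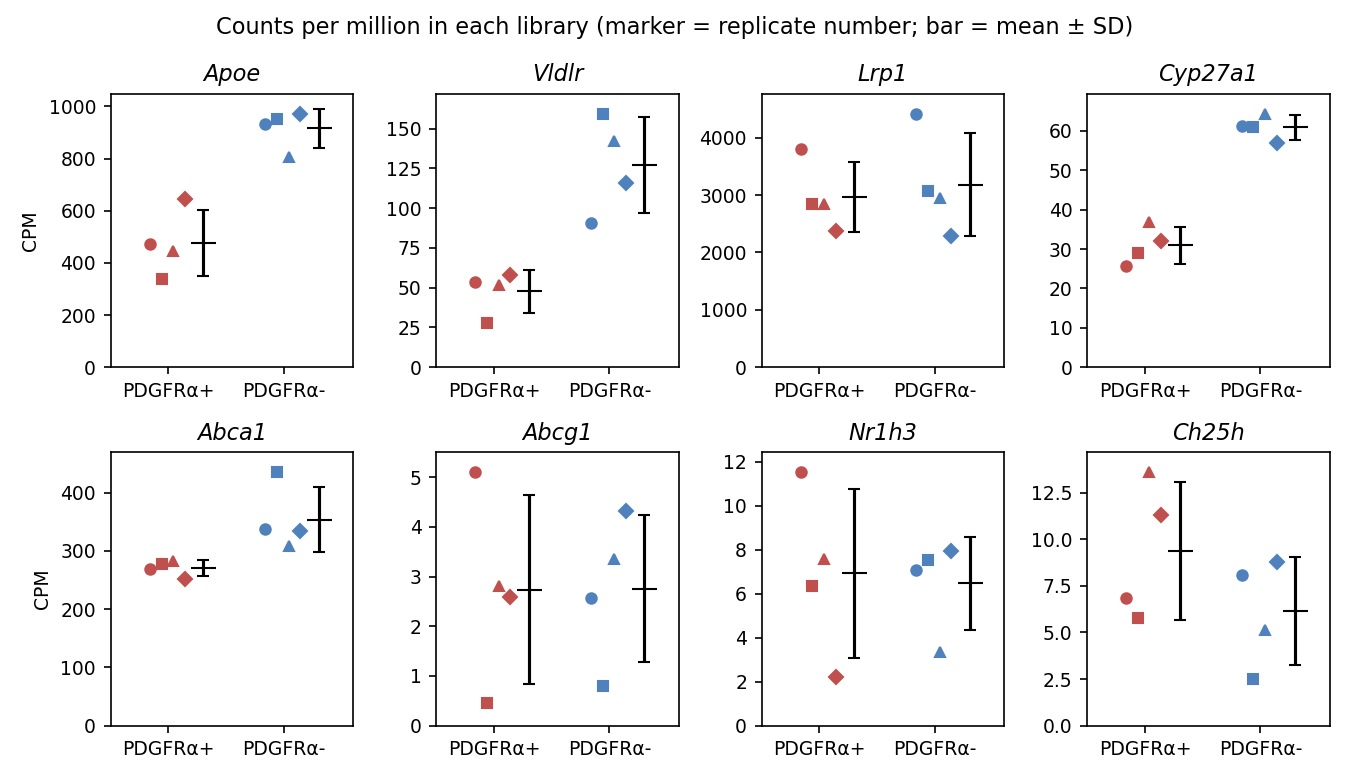
CPM (vertical axes, each from 0) of the 8 genes in the 4 PDGFRα+ libraries (red, left) and the 4 PDGFRα- libraries (blue, right), where the marker shape stands for the replicate number and the black bar for the mean and SD. The groups are apart for Apoe, Vldlr, Cyp27a1 and Abca1 and overlap for Lrp1, Abcg1, Nr1h3 and Ch25h.

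All 8 genes passed the filter on low counts. The threshold was passed by 2 of them, both lower in PDGFRα+ cells, where 0.0511% of all tested genes were called lower and 0.243% were called in either direction. In 4 of the 8, all PDGFRα+ libraries were below all PDGFRα- libraries, as in 2.36% of all tested genes. In 0 of the 8 were they all above, as in 2.69% of tested genes. The median log2 fold change of the 8 was -0.24, beside -0.01 over all tested genes. Since the genes were picked knowing this comparison, nothing is read from these counts. In the authors' deposited table, Apoe, Vldlr, Cyp27a1 and Abca1 were lower in PDGFRα+ cells at an adjusted p under 0.05, as were 2.52% of the 16785 genes with an adjusted p in it, and 0 of the 8 were higher, as were 2.3% of those genes. The log2 fold changes in the authors' deposited table were -0.992 for Apoe, -1.439 for Vldlr, -1.001 for Cyp27a1 and -0.389 for Abca1.

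Which genes passed the threshold depended on single libraries, whereas the log2 fold changes of Apoe, Vldlr, Cyp27a1 and Abca1 stayed below 0. With edgeR, 0 of the 8 passed without PDGFRα+ library 1 or 3 or PDGFRα- library 2 or 3, Vldlr alone passed without PDGFRα+ library 2 or PDGFRα- library 1 or 4, and Apoe and Vldlr passed without PDGFRα+ library 4. At an unadjusted p under 0.05, 3 or 4 of the 8 passed in each of these fits, beside 5.26% to 8.41% of all genes tested in them. With DESeq2 on all libraries, Apoe joined Vldlr and Cyp27a1 at an adjusted p under 0.05, where 0.651% of the 17811 genes with an adjusted p were lower and 0.865% were higher. Nothing is read from these counts either.

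**Figure D2:**
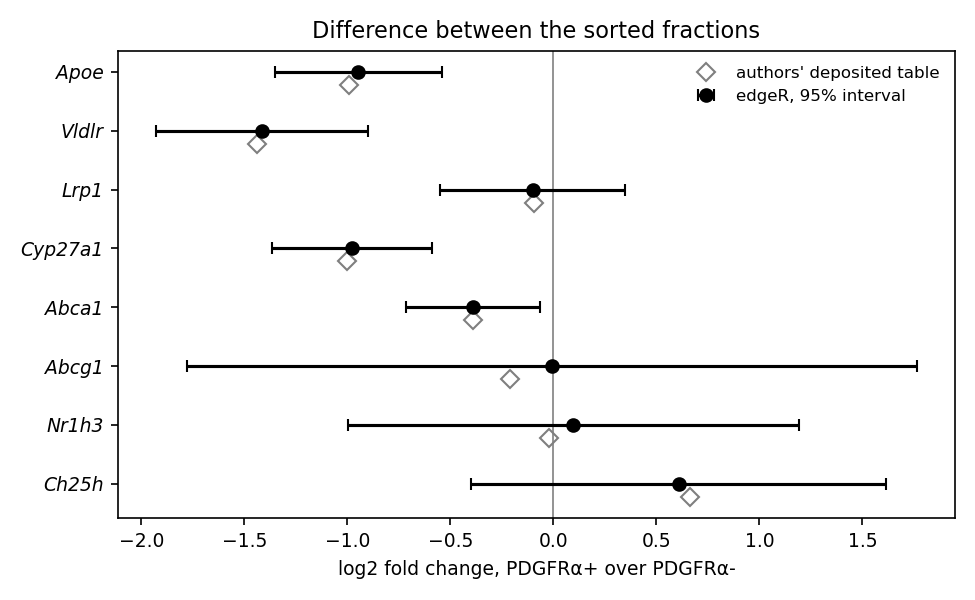
Log2 fold change of PDGFRα+ over PDGFRα- (horizontal axis) for the 8 genes, with 95% intervals from edgeR, beside the values of the authors' deposited table. Values below 0 are lower in PDGFRα+ cells; the intervals of Vldlr, Cyp27a1, Apoe and Abca1 lie below 0, and those of Lrp1, Abcg1, Nr1h3 and Ch25h cross it.

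RNA of other cell types also varied between the libraries. Macrophages express Apoe, Abca1, Cyp27a1 and Nr1h3 strongly, and the 14 macrophage markers summed to 41.9 to 90.0 CPM in PDGFRα+ libraries, against 87.5, 90.9, 157 and 192 CPM in PDGFRα- libraries 1 to 4. None of the 14 was at 0 in all libraries, and 12 of the 13 that were tested had a log2 fold change below 0. Cx3cr1, the most abundant of them, ran from 19.9 to 55.7 CPM in PDGFRα+ and from 51.5 to 59.2 CPM in PDGFRα- libraries. It made up most of the sum in PDGFRα+ libraries 1 and 4, at 55.7 and 37.3 CPM, and in PDGFRα- libraries 1 and 2, at 54.9 and 53.6 CPM. The sums of those libraries are therefore mainly the level of this gene. In PDGFRα+ libraries 2 and 3 Cx3cr1 was at 19.9 and 36.3 CPM, of sums of 41.9 and 72.5 CPM. The 12 endothelial markers summed to 65.1 to 198 CPM in PDGFRα+ and to 97.5 to 942 CPM in PDGFRα- libraries. Summed markers of smooth muscle and pericytes ran from 1607 to 2127 CPM in PDGFRα+ and from 1838 to 2483 CPM in PDGFRα- libraries, while those of epithelium, enteric glia and adipocytes each summed to at most 59.3 CPM in any library. In PDGFRα- libraries 1 and 2, whose macrophage marker sums of 87.5 and 90.9 CPM lay at the top of the PDGFRα+ range, Apoe was at 934 and 952 CPM, Vldlr at 91.0 and 159 CPM and Cyp27a1 at 61.4 and 61.0 CPM. With PDGFRα- libraries 3 and 4 left out, a setting chosen after seeing the data, the log2 fold change was -0.99 for Apoe, -1.39 for Vldlr, -0.98 for Cyp27a1 and -0.51 for Abca1. In that smaller fit 0 of the 8 genes passed edgeR's threshold, and 4 had an unadjusted p under 0.05, as had 6.20% of the 17455 genes tested in it. Of the 11 fibroblast markers, Col1a1, Col1a2, Col3a1 and Dpt were lower in all PDGFRα+ libraries than in all PDGFRα- libraries, Pdpn was higher, and the other 6 overlapped; the summed level is mostly that of the collagens. The part of macrophage, endothelial or fibroblast RNA in these results was not tested.

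Within a library, levels of different genes were compared per length as TPM, the counts per base of each gene's joined exons, scaled to sum to 1e+06 in a library. In PDGFRα+ libraries the mean TPM levels were, from high to low, Apoe 377 ± 103, Lrp1 282 ± 38.1, Abca1 44.5 ± 4.81, Cyp27a1 24.4 ± 5.21, Ch25h 11.6 ± 5.04, Vldlr 8.01 ± 2.20, Nr1h3 4.59 ± 2.26 and Abcg1 0.617 ± 0.388 (SD, n = 4). In PDGFRα- libraries the mean TPM levels were Apoe 672 ± 72.3, Lrp1 277 ± 49.3, Abca1 53.6 ± 9.21, Cyp27a1 44.1 ± 5.40, Vldlr 20.1 ± 5.92, Ch25h 6.90 ± 3.20, Nr1h3 4.01 ± 1.29 and Abcg1 0.605 ± 0.357 (SD, n = 4). Apoe and Lrp1 thus stood far above the rest in both groups, among the most abundant 1% of tested genes, and Abcg1 stood last in every library.

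Neighbours in that order were not always apart. Apoe and Lrp1 overlapped in PDGFRα+ libraries, at 284 to 522 TPM and 231 to 323 TPM, with Lrp1 the higher in library 2, but not in PDGFRα- libraries, at 585 to 756 TPM and 215 to 334 TPM. Abca1 and Cyp27a1 were apart in PDGFRα+ libraries, at 39.0 to 49.0 TPM and 17.8 to 30.5 TPM, but their ranges overlapped in PDGFRα- libraries, at 43.7 to 65.9 TPM and 37.8 to 51.0 TPM. Within every library Abca1 was the higher, though barely in PDGFRα- library 3, at 51.4 against 51.0 TPM. Ch25h was above Vldlr in PDGFRα+ libraries 2 to 4 and below it in PDGFRα+ library 1 and in all 4 PDGFRα- libraries. Nr1h3 was below Ch25h in every library other than PDGFRα- library 2.

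**Figure D3:**
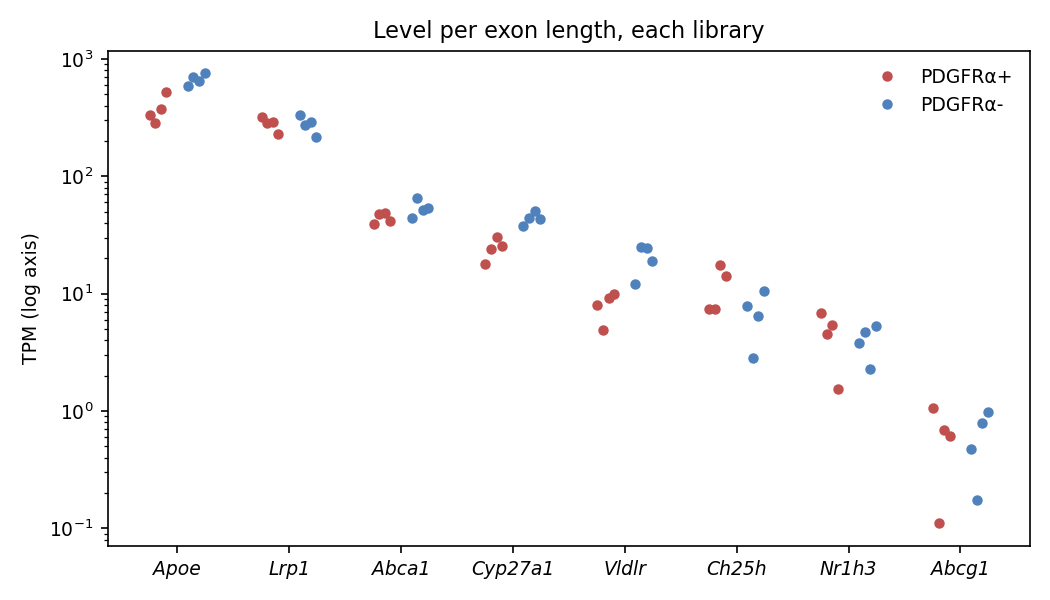
TPM levels of the 8 genes (log scale) in each PDGFRα+ and PDGFRα- library. Apoe and Lrp1 are the highest and Abcg1 the lowest; Vldlr lies at 4.94 to 9.94 TPM in PDGFRα+ libraries and at 12.1 to 24.8 TPM in PDGFRα- libraries.

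The genes whose pattern over the 8 libraries was most like that of Vldlr were taken from 6249 tested genes with a mean of at least 20 CPM. Likeness was the root mean square difference of log2 CPM, each gene centred on its own mean. The nearest was Angpt1, which encodes a ligand of the endothelial receptor TEK, at 0.098; it had 32.3 ± 9.05 CPM in PDGFRα+ and 83.1 ± 13.8 CPM in PDGFRα- libraries (SD, n = 4 each) and a log2 fold change of -1.37. Its exons overlap Gm17473 on the other strand. Adamtsl1, a secreted matrix protein, followed at 0.150 with a log2 fold change of -1.26, and Ogn, a small leucine-rich proteoglycan, at 0.308 with a log2 fold change of -1.26. Like Vldlr, Angpt1 and Ogn passed the threshold, and Adamtsl1 did not. Each of these genes was lowest in PDGFRα+ library 2 and highest in PDGFRα- library 2. Angpt1, Adamtsl1 and Ogn were picked for likeness to Vldlr, so nothing is read from these shared features. Apoe was the 12th nearest gene to Vldlr and Cyp27a1 the 33rd.

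For Cyp27a1 the nearest genes were B3galnt1, a glycosyltransferase, at 0.188, Serpini1, a serine protease inhibitor, at 0.204, and Ecm2, a matrix protein, at 0.206. Their log2 fold changes were -0.85, -0.85 and -0.71, and none of the 3 passed the threshold. In each, as in Cyp27a1, all PDGFRα+ libraries were below all PDGFRα- libraries. These genes were picked for likeness to Cyp27a1, so nothing is read from that separation. Apoe was the 26th nearest gene to Cyp27a1.

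**Figure D4:**
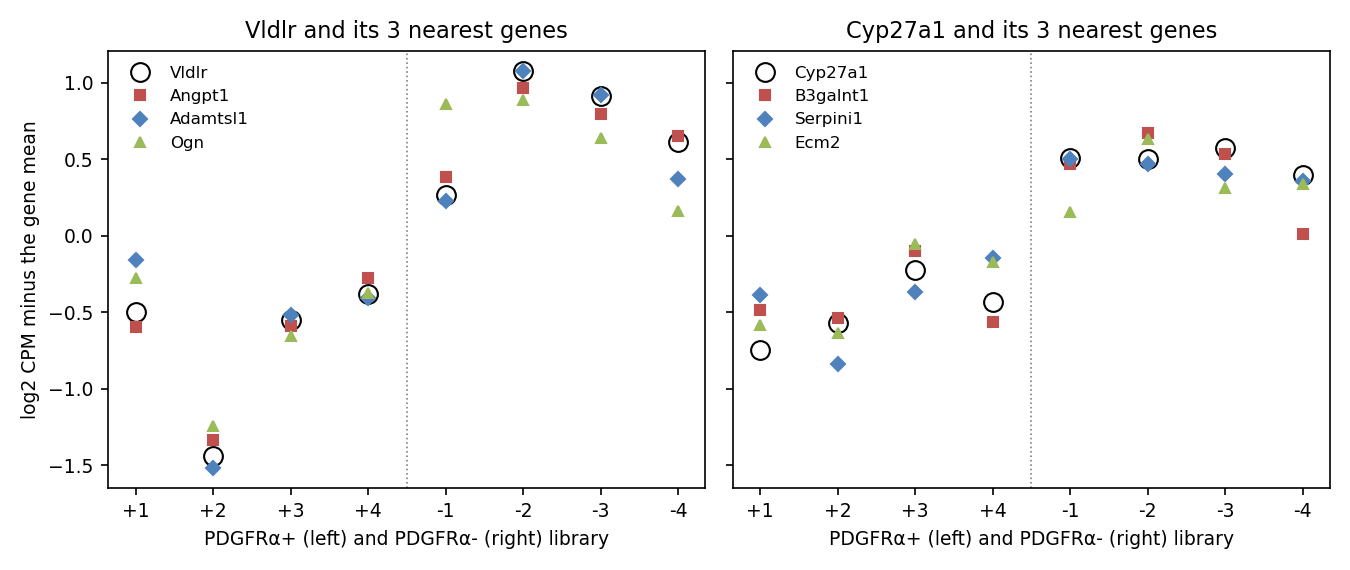
Log2 CPM minus the gene's mean over all libraries (vertical axis) in the 4 PDGFRα+ libraries (left of the dotted line) and the 4 PDGFRα- libraries (right), for Vldlr and its 3 nearest genes and for Cyp27a1 and its 3 nearest genes. In PDGFRα+ library 2 the value of Vldlr is -1.44 and that of Angpt1 -1.33.

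The other genes of these pathways came from 7 lists with 103 genes, of which 86 had enough counts to be tested. With edgeR, 0 of the 86 passed the threshold in either direction; at an unadjusted p under 0.05, 6 were higher and 7 lower in PDGFRα+ cells, or 6.98% and 8.14%, beside 3.73% and 3.22% of all tested genes. DESeq2, run without that filter, gave an adjusted p under 0.05 to 2 of the 86, Hsd11b1 (higher) and Lrp6 (lower), and also to Apoa1 (lower), which the filter had left out. The median log2 fold change of the 86 was -0.07, beside -0.01 over all tested genes. In the authors' deposited table, the list genes at an adjusted p under 0.05 included Lpl and Hsd11b1, which were higher in PDGFRα+ cells, and Lrp6, Reln, Cd36, Apoa1 and Cav1, which were lower. Among PDGFRα- libraries Cd36 ran from 0.814 to 36.6 CPM and Reln from 4.44 to 80.2 CPM, and both overlapped PDGFRα+ libraries. Apoa1 had few reads, with a mean of 2.34 CPM in PDGFRα- libraries.

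Of the 16 tested genes of the LDL receptor family, its adaptors and ligands, 5 had a log2 fold change above 0 and 11 below 0, with a median of -0.28. Lrp6, a Wnt co-receptor, had 422, 428, 451 and 430 CPM in PDGFRα+ libraries, against 608, 693, 572 and 637 CPM in PDGFRα- libraries. The groups did not overlap, but the log2 fold change of -0.54 ± 0.14 (SE) had an edgeR adjusted p of 0.199. Lrp6 passed the threshold in a fit with a term for replicate number. In this list 2 genes, Lrp6 among them, had all PDGFRα+ libraries below all PDGFRα- libraries, and 2 had them all above. Of all tested genes, 2.36% were below and 2.69% above in this way. Sorl1, a sorting receptor, averaged 156 ± 21.9 CPM in PDGFRα+ and 178 ± 21.7 CPM in PDGFRα- libraries, and Lrp5, the other Wnt co-receptor of the family, averaged 162 ± 24.2 CPM in PDGFRα+ and 156 ± 27.6 CPM in PDGFRα- libraries (SD, n = 4 each).

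Among scavenger receptors and lipases, 2 of 9 tested genes had a log2 fold change above 0 and 7 below 0. Lpl, the lipase that splits triglycerides of lipoproteins, had 146, 152, 87.7 and 71.9 CPM in PDGFRα+ libraries, against 72.9, 74.8, 30.0 and 36.7 CPM in PDGFRα- libraries. The groups overlapped only through PDGFRα+ library 4, and each PDGFRα+ library was above the PDGFRα- library of the same number. The log2 fold change of 1.09 ± 0.34 (SE) had an edgeR adjusted p of 0.394. Lpl passed the threshold in a fit with a term for replicate number, though nothing says that the numbers pair the libraries. Its inhibitor Angptl4 averaged 161 ± 36.6 CPM in PDGFRα+ and 190 ± 47.3 CPM in PDGFRα- libraries, and the lysosomal receptor Scarb2 averaged 623 ± 53.2 CPM in PDGFRα+ and 532 ± 46.3 CPM in PDGFRα- libraries (SD, n = 4 each). Of 5 tested apolipoprotein and lipid transfer genes, 4 had a log2 fold change above 0. Pltp, the phospholipid transfer protein, averaged 169 ± 28.9 CPM in PDGFRα+ and 132 ± 8.52 CPM in PDGFRα- libraries, while Apod and Clu varied more within the groups than between them.

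Of 14 tested genes of sterol efflux, storage and transport, 6 had a log2 fold change above 0 and 8 below 0. Abca8a, an exporter related to ABCA1, averaged 328 ± 64.8 CPM in PDGFRα+ and 272 ± 92.0 CPM in PDGFRα- libraries. Npc2, which hands cholesterol out of lysosomes, averaged 101 ± 18.2 CPM in PDGFRα+ and 116 ± 23.5 CPM in PDGFRα- libraries, and Gramd1a, which moves cholesterol from the plasma membrane, averaged 81.1 ± 17.0 CPM in PDGFRα+ and 81.1 ± 19.6 CPM in PDGFRα- libraries (SD, n = 4 each). The oxysterol list had 3 of 6 tested genes on each side of 0. Hsd11b1, an enzyme that activates glucocorticoids and also converts oxysterols, had 131, 116, 78.2 and 32.9 CPM in PDGFRα+ libraries, against 46.3, 29.8, 21.2 and 6.13 CPM in PDGFRα- libraries. PDGFRα+ library 4 lay below PDGFRα- library 1, but each PDGFRα+ library was above the PDGFRα- library of the same number. The log2 fold change of 1.79 ± 0.64 (SE) had an edgeR adjusted p of 0.546. Hsd11b1 passed the threshold in a fit with a term for replicate number, though nothing says that the numbers pair the libraries. The hydroxylase Cyp7b1, which acts on 25- and 27-hydroxycholesterol, averaged 112 ± 20.8 CPM in PDGFRα+ and 105 ± 27.9 CPM in PDGFRα- libraries, and Cyp39a1 averaged 23.1 ± 8.33 CPM in PDGFRα+ and 18.7 ± 8.06 CPM in PDGFRα- libraries (SD, n = 4 each).

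LXR partners and targets had 5 of 13 tested genes above 0 and 8 below 0, with a median log2 fold change of -0.02. The co-repressor Ncor1 averaged 287 ± 25.5 CPM in PDGFRα+ and 283 ± 12.5 CPM in PDGFRα- libraries (SD, n = 4 each). The desaturase Scd2 averaged 161 ± 24.6 CPM in PDGFRα+ and 144 ± 22.4 CPM in PDGFRα- libraries. Sterol synthesis and its SREBP2 control had 11 of 23 tested genes above 0 and 12 below 0, with a median of -0.03. Srebf2, which encodes the regulator SREBP2, averaged 91.8 ± 19.2 CPM in PDGFRα+ and 93.4 ± 18.5 CPM in PDGFRα- libraries. Insig1, which holds SREBP2 in the endoplasmic reticulum, averaged 64.1 ± 10.9 CPM in PDGFRα+ and 73.5 ± 5.83 CPM in PDGFRα- libraries, and the synthase Hmgcs1 averaged 43.6 ± 6.61 CPM in PDGFRα+ and 50.7 ± 4.90 CPM in PDGFRα- libraries (SD, n = 4 each). These lists were also made with earlier results known.

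**Figure D5:**
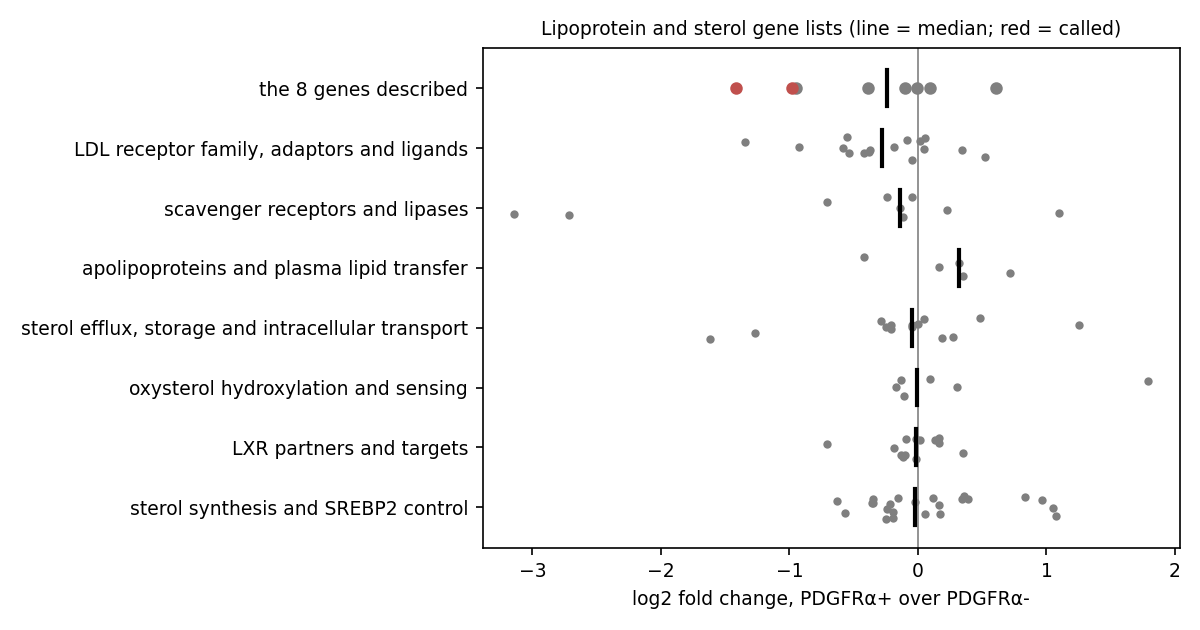
Log2 fold change of PDGFRα+ over PDGFRα- for the tested genes of the 8-gene set and of the 7 pathway lists, 1 point a gene, with the median of each list as a line and the called genes, Vldlr and Cyp27a1, in red. The median is -0.24 for the 8 genes, -0.28 for the LDL receptor family and -0.03 for sterol synthesis.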

How the data were processed

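RNA of sorted cells was made into libraries with the SMARTer Stranded Pico kit, meant for small inputs, and sequenced on an Illumina NextSeq, per the labels' protocols. Reads were handled with cutadapt 3.4, STAR 2.7.3a, featureCounts 2.0.1 and DESeq2 on GRCm38 (mm10), per the submitters' processing notes; whether counting used strand is not given in the sources used here. Raw read counts per gene, which the authors deposited, were analysed here. The deposited counts scaled by size factor and rounded are a score and were not tested. The deposited comparison gives a ratio (fold), a log2 fold change and a p-value per gene, and only what is named as such comes from it.

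Of 53801 rows, 53620 matched GENCODE M21, and 24547 held 0 counts in all libraries. On the 15643 genes left by filterByExpr, edgeR 4.0.16 (R 4.3.3) fitted a robust quasi-likelihood model with TMM scaling and no term besides group. The threshold was an adjusted p under 0.05. CPM uses TMM-scaled library sizes, and SE and intervals come from the same fit. The script was tested on simulated data. Libraries of a group differed beyond counting noise, with chi-square values of 41.7 to 142 per degree of freedom. DESeq2 1.42.0, RLE scaling, no filter, a replicate block and fits without single libraries were alternatives. Intervals cover the spread between libraries; reads from amplified libraries, for which no molecular identifiers are stated, do not count molecules.

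The 8 genes and the lists were chosen with earlier results of these data known. The genes named were all 8, each list's called genes and its 3 most abundant, the 3 genes nearest in pattern to Vldlr and to Cyp27a1, and, of each marker list, the most abundant gene with Ptprc, Pecam1, Epcam and Pdgfra. Lpl, Hsd11b1 and Lrp6 are among those. A few genes that the rule takes are not reported here. Reln, Cd36, Apoa1, Cav1, Col1a1, Col1a2, Dpt and Pdpn were named after their values were seen, as were the within-library ratios in the closing section.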

Additional observations from a re-analysis of the deposited data

Results flagged for a closer look

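In 80 groups of 4 libraries, 1 library was checked for standing apart from the other 3, by its gap to the nearest value relative to the whole range. This flags about 1 in 20 groups by chance, and 7 were flagged, none of them for the 8 genes. Abca8a was at 410 CPM in PDGFRα- library 2, against 216 to 236 CPM in the other PDGFRα- libraries. Cyp7b1 was at 143 CPM in PDGFRα+ library 3, against 97.8 to 105 CPM in the other PDGFRα+ libraries. The endothelial genes Pecam1 and Tek were flagged at 132 CPM in PDGFRα- library 4, with 11.7 to 15.4 CPM in the others of its group, and at 70.8 CPM in PDGFRα+ library 3, with 40.5 to 45.6 CPM in the others. Among epithelial genes, Epcam was at 1.19 CPM in PDGFRα+ library 2, against at most 0.0743 CPM in the others. Muc2 was at 23.4 CPM in PDGFRα+ library 4 and at 23.7 CPM in PDGFRα- library 2, against at most 1.69 CPM in the other PDGFRα+ libraries and at most 4.62 CPM in the other PDGFRα- libraries.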

How the results depend on the processing

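Leaving 1 of 4 libraries out of a group can hardly move a fold change by 1 within-group SD. The log2 fold changes of the 8 genes stayed within that distance of the reported value under all 13 alternatives, which therefore says little. They ran from -1.13 to -0.81 for Apoe, from -1.54 to -1.22 for Vldlr, from -1.07 to -0.90 for Cyp27a1, from -0.51 to -0.27 for Abca1 and from 0.35 to 0.84 for Ch25h. Those of Lrp1 (-0.33 to 0.10), Abcg1 (-0.49 to 0.70) and Nr1h3 (-0.26 to 0.39) took both signs.

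Counts of calls moved more. Genes called over the whole table numbered 38, or 0.243% of genes tested. They numbered 277 (0.947%) with no filter, 270 (1.52% of those with an adjusted p) with DESeq2 and 18 (0.103%) without PDGFRα- libraries 3 and 4 together. When 1 library was left out, they numbered 7 to 49 (0.0429% to 0.299%). Of the 8 genes 2 were called, against 3 with no filter and with DESeq2, 0 without PDGFRα- libraries 3 and 4, and 0 to 2 without 1 library. Of the pathway genes 0 of 86 tested were called, against 2 of 100 tested with no filter (Cav1 and Lpl), 3 of 91 with an adjusted p from DESeq2 (2 of them among the 86), and 0 without any 1 library. RLE scaling called the same 2 of the 8 genes. The cause of these moves was not tested.

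With a replicate block, 355 genes were called over the whole table, or 2.27% of those tested. They included 3 of the 8 genes (Apoe, Vldlr and Cyp27a1) and 4 of the pathway genes (Cav1, Hsd11b1, Lpl and Lrp6). The deviations of same-numbered libraries correlated at 0.23, 0.18, 0.02 and 0.25, and for 7 of 8 libraries the best match was the library of the same number, a hint from the data only, since the minimum of 0.1 was not met by each number. The depth limits Abcg1, Nr1h3 and Ch25h, with as few as 11, 30 and 50 reads in a library.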

Other observations

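Ratios within a library do not depend on its scaling, and the following were chosen after the values were seen. Cyp27a1 stood at 1.74 to 3.21 times the TPM level of Ch25h in PDGFRα+ libraries and at 4.13 to 15.5 times in PDGFRα- libraries. These ranges did not overlap, but Cyp27a1 was picked knowing this comparison, and Ch25h alone overlapped between the groups. The value of 15.5, in PDGFRα- library 2, rests on 50 reads of Ch25h. How often ratios of other genes are apart was not counted, so nothing is read from this ratio. The level of Vldlr relative to Lrp1 was 0.0172 to 0.0431 in PDGFRα+ and 0.0362 to 0.0916 in PDGFRα- libraries, which overlapped through PDGFRα+ library 4 and PDGFRα- library 1. Apoe stood at 5.90 to 12.5 times the TPM level of Abca1 in PDGFRα+ libraries and at 10.6 to 14.1 times in PDGFRα- libraries.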
